A study of Glycine max with 30 samples.

Results

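The 200 genes described here were those whose transcript level differed most between non-transgenic sibling soybean plants. They were chosen from the leaf counts themselves. A count was divided by the total of its library and multiplied by 1000000 to give CPM. Genes qualified with a mean of at least 5 CPM in each of the 3 non-transgenic groups and a mean over the 15 non-transgenic libraries outside the 200 highest. Of the 17115 genes that met both criteria, called compared genes below, the 200 with the highest standard deviation (SD) of log2(CPM + 1) within a group, averaged over the 3 non-transgenic groups, were taken as members. The tables held 55589 gene identifiers in all.

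Poly(A) RNA of mature leaves was sequenced in 30 libraries of soybean (Glycine max), each read here as 1 plant because the design text gives the same numbers of siblings. Plants were transgenic (T) or non-transgenic (NT) siblings. The cultivar Jack was used for NRPD1-RNAi, with 3 T and 3 NT plants. Mustang, another cultivar, was used for NRP(D/E)2-RNAi and for NRPE1-RNAi, with 6 T and 6 NT plants each. The labels give no promoter for the RNAi constructs, no plant age and no growth conditions, and whether a family comes from 1 transformation event is not given in the sources used here. Every family had its own NT siblings.

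NRPD1 and NRPE1 are the largest subunits of the plant RNA polymerases IV and V, and NRP(D/E)2 is a large subunit that both enzymes contain. In RNA-directed DNA methylation, polymerase IV makes the precursors of small RNAs and polymerase V makes the transcripts at which those small RNAs guide methylation of DNA. The siblings of a family share their parents, so the spread between NT siblings is the background against which a difference between T and NT plants is read. The files give the genes by identifier alone, none of which matched a named entry, so the members are described by their values, their position among the identifiers and the plants in which they were high or low. The number in an identifier after "Glyma." is its chromosome. In bulk leaf RNA, fewer cells of a type and less RNA per cell cannot be told apart.

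Library totals lay between 10049997 and 21763621 counts, and the members took 1.28% to 2.85% of them. Counting error was small beside the spread by which the members were chosen. The SD that counting alone gives to a log2 count, averaged over the NT libraries, had a median of 0.0889 over the members. It reached 0.361 at most. Members had mean levels of 9.77 to 489 CPM over the NT libraries, with a median of 51.6 CPM. Several libraries stood apart from their siblings over the whole table. NRPD1-RNAi T plant 3 was the library farthest from its group mean for 157 members (78.5%) and for 71.0% of the other compared genes. NRPE1-RNAi T plant 1 was the farthest of its 6 siblings for 33.5% of the members and 41.5% of the others. NRPE1-RNAi NT plant 4 was the farthest of its 6 siblings for 120 members (60%) and for 43.7% of the other compared genes, and NRPD1-RNAi NT plant 3 was the farthest of its 3 siblings for 58% and 48.9%. For NT plants the members' share is raised by the choice on NT spread. The part of these libraries in results given only with them was not tested.

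The average NT SD that chose the members ran from 0.94 to 2.20 (median 1.09). Just inside the limit, Glyma.18G255300 and Glyma.15G238900 both had 0.94. Just outside it, Glyma.11G091400 also had 0.94 and Glyma.01G184600 had 0.93, so the limit falls within a continuum. The average SD within T groups was 0.57 and 0.49 for the members just inside, and 1.33 and 0.83 for the genes just outside.

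The members were also variable between T plants, which had no part in the choice. Their average SD within the 3 T groups had a median of 0.93, with an interquartile range of 0.71 to 1.20, against a median of 0.27 in the other compared genes. Of the 200 members, 91 (45.5%) were among the 200 compared genes with the highest T SD, which are 1.17% of the compared genes. A wider set, the 1000 compared genes with the highest T SD (5.84%), held 166 members (83%). The lowest rank of a member by T SD was 6595, and 0 members fell under the median of the compared genes. Without NRPD1-RNAi T plant 3, the median T SD was 0.65 in the members and 0.21 in all compared genes.

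**Figure D1:**
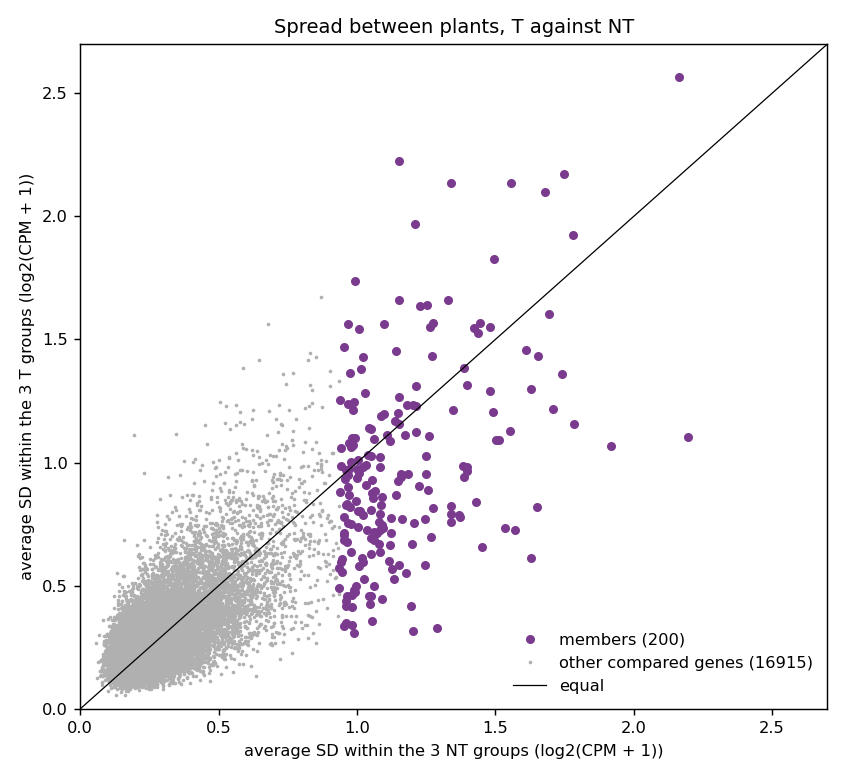
Average SD of log2(CPM + 1) within the 3 T groups (vertical axis) against that within the 3 NT groups (horizontal axis), for the 200 members (large points) and the 16915 other compared genes (small points), with a line where both are equal. The members begin at an NT SD of 0.94 because that value chose them; their T SD, which did not, runs from 0.31 to 2.56.

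The families contributed unequally. Over the members, the median SD was 0.99 between NRPD1-RNAi T plants and 0.87 between their NT siblings. It was 0.70 between NRP(D/E)2-RNAi T plants and 1.11 between NT plants. For NRPE1-RNAi it was 0.92 between T plants and 1.34 between NT plants. A larger SD in T than in NT plants was found for 98 members in the NRPD1-RNAi family, 55 in the NRP(D/E)2-RNAi family and 38 in the NRPE1-RNAi family. A lower spread in T plants than in the NT plants that chose the members carries no meaning of its own, since the choice picked high NT values. The other compared genes, which carry little of that choice, had a median SD of 0.30 in T and 0.23 in NT plants of the NRPD1-RNAi family, 0.23 and 0.26 in T and NT plants of the NRP(D/E)2-RNAi family, and 0.25 and 0.26 in T and NT plants of the NRPE1-RNAi family.

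A minority of the members were variable everywhere. An SD above the 90th percentile of the compared genes was found in all 3 T groups for 85 members and in all 3 NT groups for 119. In all 6 groups it was found for 46 members, and 9 members exceeded it in none of the T groups. The counts over the NT groups and over all 6 groups use the spread that chose the members, which raises them. The share of all compared genes above it in all 3 or all 6 groups was not counted. The largest T SD of a member lay in the NRPD1-RNAi family for 98 members, in the NRPE1-RNAi family for 66 and in the NRP(D/E)2-RNAi family for 36. The largest NT SD, read from the spread that chose the members, lay in the NRPE1-RNAi family for 101 members. It lay in the NRP(D/E)2-RNAi family for 52 and in the NRPD1-RNAi family for 47.

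To find which members vary together, each value was taken as its deviation from the mean of its own group of siblings. Members were then joined by the Pearson correlation of these deviations over the 15 NT libraries, dividing the tree at an average r of 0.5. This placed 178 of the 200 members in 7 groups of at least 10 members, named A to G by size, and left 22 outside them. Groups A to G held 59, 29, 25, 21, 21, 12 and 11 members. Pairs within a group had a median r of 0.62 over the 15 T libraries, which the grouping did not use, and of 0.77 over the NT libraries, which it did. Pairs of members not in the same group had medians of -0.02 in T and -0.04 in NT libraries, and 2000 random pairs of compared genes had 0.15 and 0.02. These correlations describe the same 30 libraries and share their depth, so they carry no p-value.

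**Figure D2:**
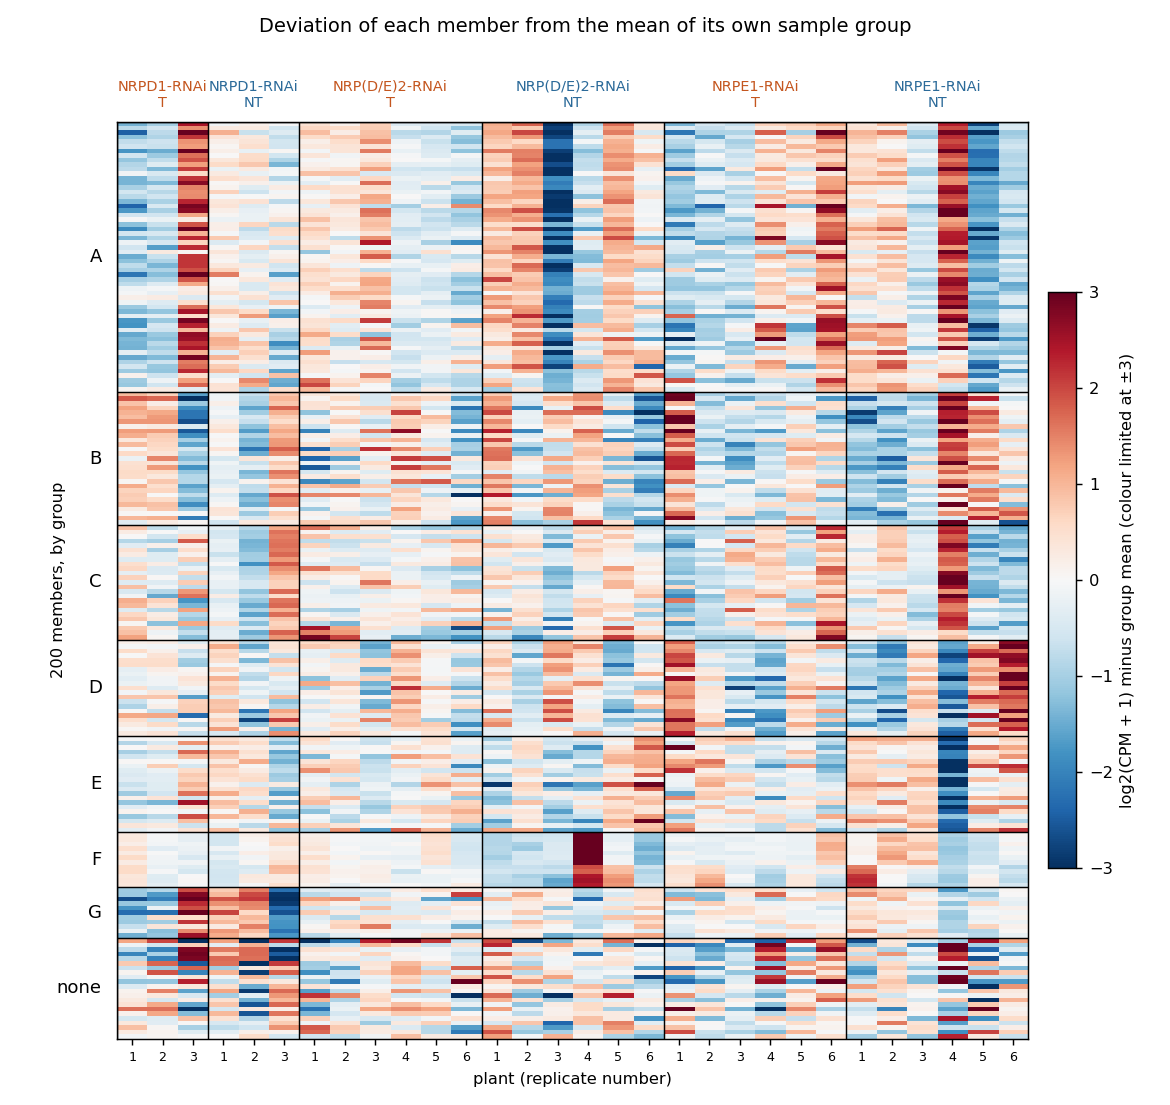
Deviation of log2(CPM + 1) of each of the 200 members (rows, by group A to G, then the ungrouped) from the mean of its own group of siblings, in each of the 30 plants (columns, T left of NT within each family). Colour runs from blue (lower than the siblings) through white to red (higher), limited at ±3. Blocks of 1 colour down a column are plants in which a whole group was displaced, such as group A in NRP(D/E)2-RNAi NT plant 3 and group E in NRPE1-RNAi NT plant 4.

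The co-variation carried over to the T plants to different degrees. Over the T libraries the median r within a group was 0.69 in group A, 0.58 in B, 0.57 in D and 0.62 in G, and 0.36 in C, 0.38 in F and 0.29 in E. The share of pairs with a positive r in the T libraries was 98.2% in A, 95.6% in B, 100% in D and 94.5% in G, but 78.3% in C, 72.9% in E and 62.1% in F. Without NRPD1-RNAi T plant 3, the median r was 0.61 in A, 0.50 in B, 0.42 in C, 0.60 in D, 0.22 in E, 0.31 in F and -0.01 in G. The correlation of group G in T plants therefore rests on that 1 library, whereas those of A, B and D do not. Each group spread over 10 to 17 chromosomes.

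**Figure D3:**
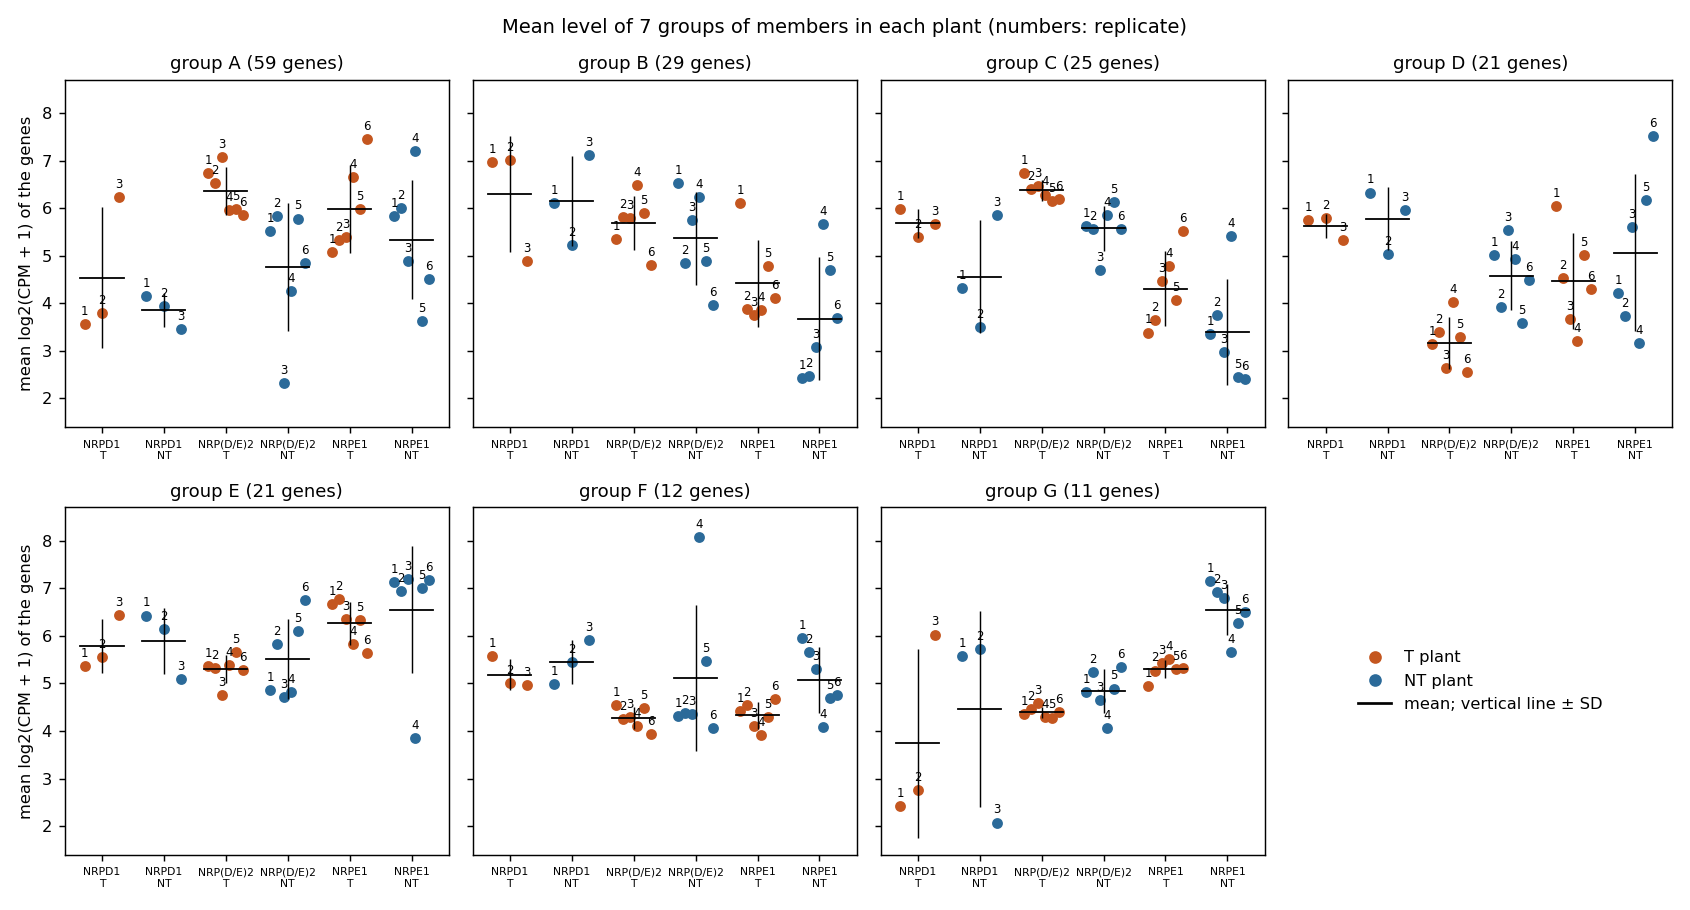
Mean log2(CPM + 1) of the members of each group (vertical axis) in every plant, for T (orange) left of NT (blue) within each family; digits give the plant, horizontal lines the mean and vertical lines ± SD over plants. Single plants stand far from their siblings, such as NRP(D/E)2-RNAi NT plant 4 in group F at 8.08 against 4.07 to 5.47 in the other 5.

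Group A, the largest, swung together between siblings of both Mustang families, but with NRPD1-RNAi the movement lay in T plant 3. The range between NRPD1-RNAi NT plants was only 1.62-fold. The mean level of group A on the log2(CPM + 1) scale was 3.57, 3.79 and 6.24 in NRPD1-RNAi T plants 1, 2 and 3. It was 3.46 to 4.16 in the NT plants beside them, so T plant 3 alone was high. In the NRP(D/E)2-RNAi family it lay between 5.85 and 7.08 in T plants (median 6.26) and between 2.31 and 5.84 in NT plants (median 5.19). NT plant 3 was the low one, and T and NT plants did not overlap, by a narrow margin. In the NRPE1-RNAi family it lay between 5.08 and 7.45 in T plants and between 3.62 and 7.19 in NT plants. T plant 6 and NT plant 4 were the high ones, and NT plant 5 was the low one. The whole range between siblings came to 5.18-fold in NRPE1-RNAi T plants and 11.9-fold in their NT siblings.

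Single genes of group A moved further than its mean. Glyma.17G030200 had 3.60, 13.7 and 237 CPM in NRPD1-RNAi T plants 1, 2 and 3, against 19.0, 4.99 and 6.34 CPM in the NT plants. In the NRP(D/E)2-RNAi family it ran from 55.4 to 197 CPM in T plants (median 101) and from 0.680 to 100.3 CPM in NT plants (median 37.8). Its level in the NRPE1-RNAi family ran from 15.7 to 692 CPM when T (median 38.7) and from 2.30 to 256 CPM when NT (median 42.4). The highest and lowest NRPE1-RNAi plants were those of the group as a whole: T plants 6 and 1 and NT plants 4 and 5. Glyma.10G261200 had the highest correlation with the group profile over NT libraries. It had 5.82, 8.03 and 98.4 CPM in NRPD1-RNAi T plants and 5.90 to 7.21 CPM in their NT siblings. It had 251 to 567 CPM (median 319) in NRP(D/E)2-RNAi T plants, against 3.26 to 230 CPM (median 115) in NT plants.

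Group B differed from group A in part of the plants. Its mean level was 6.97, 7.02 and 4.88 in NRPD1-RNAi T plants 1, 2 and 3, against 6.11, 5.22 and 7.12 in NT plants 1, 2 and 3. T plant 3, high in group A, was thus the low one here. In the NRPE1-RNAi family the highest plants were T plant 1 at 6.10 (the other T plants from 3.75 up, median of all 6 at 4.00) and NT plant 4 at 5.67 (median 3.39), which was also the highest NT plant in group A. Over T libraries the profiles of A and B correlated at r = -0.56, and at -0.28 without NRPD1-RNAi T plant 3. Over NT libraries they correlated at -0.08, and at -0.50 without NRPE1-RNAi NT plant 4. Glyma.16G165200 of group B had 1057, 972 and 24.2 CPM in NRPD1-RNAi T plants 1, 2 and 3, against 607, 355 and 1313 CPM in NT plants 1, 2 and 3. It had 1207 CPM in NRPE1-RNAi T plant 1 and 12.6 to 40.1 CPM in the other 5 T plants, against 3.16 to 176 CPM in the NT siblings.

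Group C followed group A in part. The profiles of A and C over plants correlated at r = 0.61 over the 15 T libraries and at 0.64 over the 15 NT libraries, and at 0.83 without NRPD1-RNAi T plant 3 and 0.48 without NRPE1-RNAi NT plant 4. The mean level of group C lay between 5.38 and 5.99 in NRPD1-RNAi T plants, and at 4.32, 3.50 and 5.86 in NT plants 1, 2 and 3. In the NRPE1-RNAi family it lay between 3.38 and 5.51 in T plants, highest in plant 6, and between 2.42 and 5.42 in NT plants, highest in plant 4. Glyma.08G035300 in this group had 85.2, 57.6 and 122 CPM in NRPD1-RNAi T plants, against 5.83, 3.76 and 26.3 CPM in NT siblings, with no overlap. In NRPE1-RNAi plants it ran from 12.9 to 153 CPM in T plants (median 23.1) and from 4.79 to 60.4 CPM in NT plants (median 16.5), with overlap.

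Group D ran against group A. Profiles of A and D correlated at r = -0.40 over T libraries and at -0.75 over NT libraries, and at -0.27 without NRPE1-RNAi T plant 1 and -0.66 without NRPE1-RNAi NT plant 4. The mean level of group D was 5.74, 5.79 and 5.33 in NRPD1-RNAi T plants, which differed little, and 6.33, 5.04 and 5.97 in NT plants. In NRPE1-RNAi T plants it lay between 3.20 in plant 4 and 6.05 in plant 1, and in NT plants between 3.16 in plant 4 and 7.51 in plant 6, a 20.5-fold range. The member with the highest NT SD of all, Glyma.02G156800, belongs here. It had 0.551 to 45.1 CPM (median 7.61) in NRPE1-RNAi T plants, highest in plant 1, and 613 CPM in NRPE1-RNAi NT plant 6 with 1.91 to 9.50 CPM in the other 5 NT plants. Glyma.06G170300, nearest to the group profile, had 8.13 to 57.1 CPM (median 14.3) in NRPE1-RNAi T plants, highest again in plant 1. It had 12.4 to 265 CPM (median 37.9) in NT plants, highest again in plant 6.

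Group E was displaced most widely in 1 plant. Its mean level lay between 5.64 and 6.77 in NRPE1-RNAi T plants and was 3.84 in NRPE1-RNAi NT plant 4, with 6.94 to 7.20 in the other 5 NT plants. The range between T siblings was 2.19-fold, against 10.3-fold between NT siblings. It lay in NRP(D/E)2-RNAi plants between 4.76 and 5.66 when T and between 4.71 and 6.75 when NT, highest in NT plant 6. In the NRPD1-RNAi family it was 5.37, 5.56 and 6.44 in T plants 1, 2 and 3, against 6.43, 6.15 and 5.10 in NT plants 1, 2 and 3. Glyma.07G257700 in this group had 152 to 515 CPM (median 215) in NRPE1-RNAi T plants, and 14.7 CPM in NT plant 4 with 261 to 634 CPM in the other 5 NT plants. The profiles of B and E correlated at r = -0.11 over T libraries and at -0.81 over NT libraries. Without NRPD1-RNAi T plant 3 the first was 0.31, and without NRPE1-RNAi NT plant 4 the other was -0.72. Profiles of C and E correlated at -0.68 over T libraries (-0.81 without that T plant) and at -0.63 over NT libraries (-0.15 without that NT plant).

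Group F was displaced most widely in another plant. In the NRP(D/E)2-RNAi family its mean level lay between 3.94 and 4.55 in T plants, a 1.52-fold range, and reached 8.08 in NT plant 4, which made the range in NT plants 16.1-fold. Glyma.08G269900 had 52.3 to 105 CPM (median 69.7) in NRP(D/E)2-RNAi T plants. It had 1389 CPM in NT plant 4 and 57.3 to 103 CPM in the other 5 NT plants. The same plant had 1081 CPM of Glyma.09G133900, 2318 CPM of Glyma.11G218300, 1035 CPM of Glyma.04G168600 and 716 CPM of Glyma.05G084400. None of the group F members was among the 200 highest by T SD, and the group's median T SD of 0.43 was the lowest of the 7. In the NRPE1-RNAi family its mean level lay between 3.92 and 4.67 in T plants and between 4.09 in plant 4 and 5.95 in plant 1 among NT plants, a 3.63-fold range. All 12 members were above the NT mean in that plant 1 and 0 of 12 in plant 4. Among them Glyma.10G208900 and Glyma.15G003800 stood far above their siblings. Glyma.10G208900 had 9.37 to 41.1 CPM in NRPE1-RNAi T plants, and 132 CPM in NT plant 1 with 12.8 to 30.1 CPM in the other 5 NT plants. Glyma.15G003800 had 22.5 to 104 CPM in the T plants, and 312 CPM in NT plant 1 with 29.3 to 73.8 CPM in the other 5. Both were picked after their values were seen, as were Glyma.04G168600 and Glyma.05G084400.

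Group G divided the plants of the NRPD1-RNAi family. Its mean level was 2.42, 2.77 and 6.03 in T plants 1, 2 and 3, against 5.57, 5.72 and 2.07 in NT plants 1, 2 and 3. T plant 3 stood near NT plants 1 and 2, and NT plant 3 near T plants 1 and 2. The labels of these libraries were not tested against the targeted transcript here, so directions here, as in the other families, rest on the labels alone. The range was 12.2-fold in T and 12.5-fold in NT plants there, against 1.23-fold in T and 2.43-fold in NT plants of the NRP(D/E)2-RNAi family. In the NRPE1-RNAi family the mean level of group G lay between 4.94 and 5.51 in T plants and between 5.65 and 7.15 in NT plants. These T and NT plants did not overlap, by a narrow margin. Glyma.14G195000 had 0.460, 1.23 and 243 CPM in NRPD1-RNAi T plants 1, 2 and 3, against 116, 138 and 0.963 CPM in NT plants 1, 2 and 3. Glyma.03G231200 had 1.15, 0.410 and 30.1 CPM in the T plants, against 18.6, 39.0 and 0.321 CPM in the NT plants.

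Across groups, the profiles of A and G correlated at r = 0.73 over T libraries, and at 0.53 without NRPD1-RNAi T plant 3. Over NT libraries they correlated at 0.15, and at 0.35 without NRPE1-RNAi NT plant 4. B and D correlated at 0.79 over T libraries (0.88 without that T plant) and at 0.17 over NT libraries, where leaving out that NT plant gave 0.63. B and G opposed each other with and without these plants, at -0.68 over T libraries (-0.64 without) and -0.68 over NT libraries (-0.65 without). E and G changed sign over T libraries, at 0.45 with NRPD1-RNAi T plant 3 and -0.55 without it.

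Other compared genes followed some groups. With a correlation of at least 0.8 to the group profile in T and NT libraries alike there were 217 other compared genes for group A, 74 for B, 20 for C, 15 for D, 30 for E, 0 for F and 26 for G. In the NT libraries alone, the numbers were 351, 337, 393, 132, 524, 77 and 95 in the same order. The members of A are thus the most variable part of a larger set of genes that moved together, whereas 0 of the 77 genes that followed group F in NT plants did so in T plants.

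The 22 members outside the groups included some of the most variable. Glyma.17G119000 had the highest T SD of all compared genes, at 2.56. It had 32.8, 58.9 and 0.655 CPM in NRPD1-RNAi T plants, against 55.6, 1.46 and 106 CPM in NT plants. In the NRP(D/E)2-RNAi family it ran from 1.52 to 477 CPM in T plants (median 161) and from 11.5 to 311 CPM in NT plants (median 92.5). The NRPE1-RNAi family had 9.19 to 252 CPM in T plants (median 82.9) and 12.0 to 480 CPM in NT plants (median 81.8). It thus spanned at least an order of magnitude within each of the 6 groups, with T and NT plants overlapping in all 3 families.

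Other members were high in single plants. Glyma.13G091100 had 6.75 to 308 CPM (median 35.2) in NRPE1-RNAi T plants, and 622 CPM in NRPE1-RNAi NT plant 4 with 5.22 to 28.4 CPM in the other 5 NT plants. Glyma.18G061100, with a T SD of 2.14, had 218 CPM in NRP(D/E)2-RNAi T plant 6 and 3.75 to 36.0 CPM in the other 5 T plants, against 12.2 to 71.2 CPM in the NT siblings. Glyma.08G171000, with a T SD of 2.23, had 218, 217 and 5.97 CPM in NRPD1-RNAi T plants 1, 2 and 3, against 83.5 to 149 CPM in the NT siblings. Glyma.20G047400 was the opposite case, with a T SD of 0.33. It had 30.7 to 55.1 CPM in NRPE1-RNAi T plants, and 0.638 CPM in NRPE1-RNAi NT plant 5 with up to 44.6 CPM in the other 5 NT plants. This gene was picked after its values were seen.

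**Figure D4:**
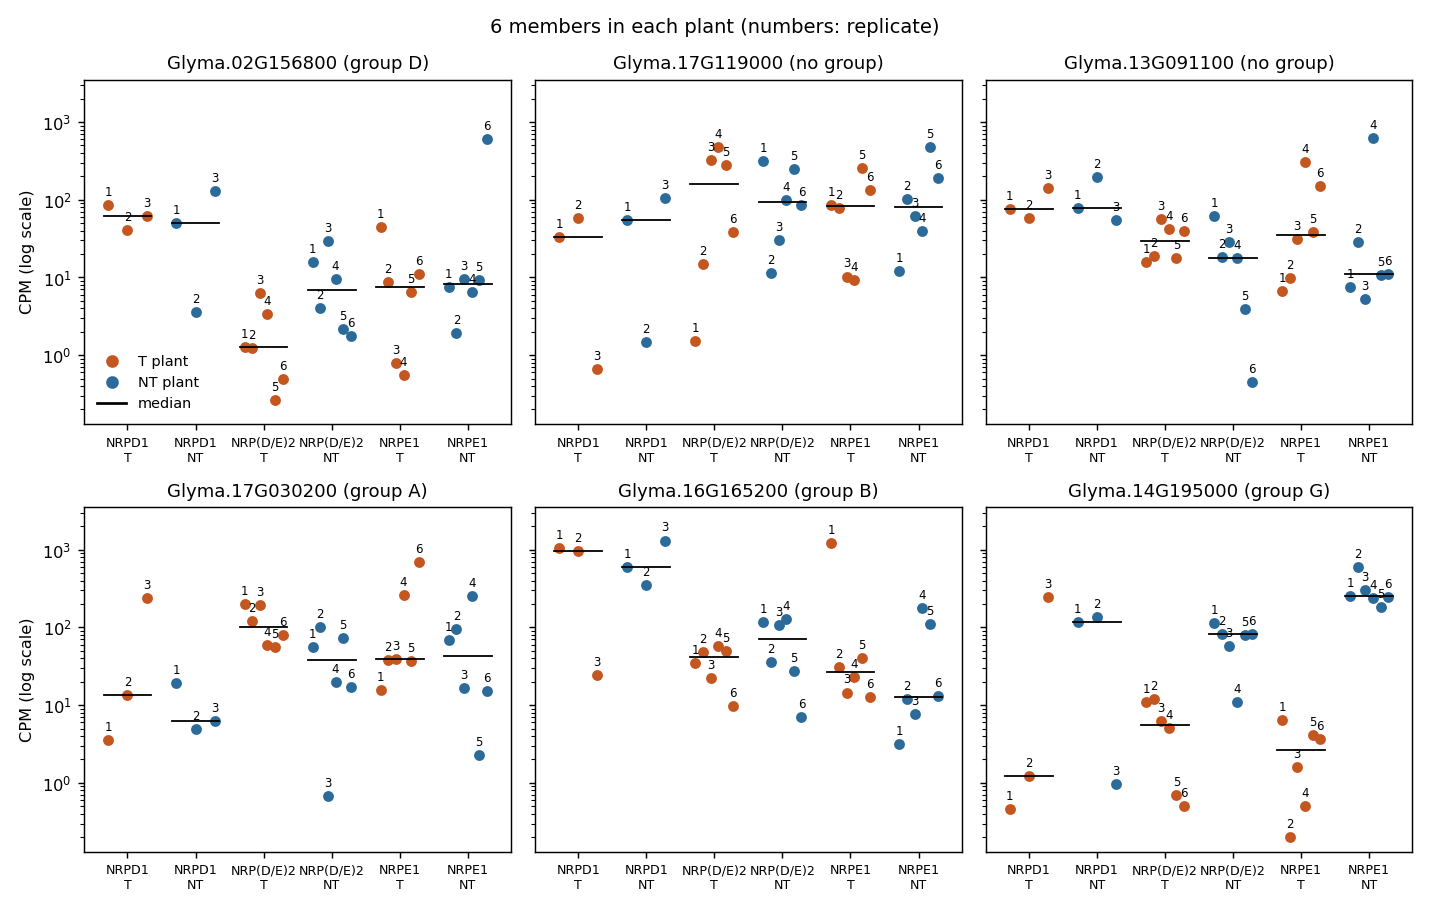
CPM (log scale) of 6 members in each plant, for T (orange) left of NT (blue) within each family; digits give the plant and lines the median. T and NT plants of Glyma.17G119000 overlap in every family, whereas Glyma.14G195000 lies between 0.199 and 6.43 CPM in the NRPE1-RNAi T plants and between 185 and 596 CPM in their NT siblings.

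Plants differed in how many members they displaced. A deviation of more than 1 on the log2 scale from the siblings' mean was found for 108 members in NRPD1-RNAi T plant 3, 105 in NRPE1-RNAi T plant 1, 88 in NRPE1-RNAi T plant 6 and 61 in NRP(D/E)2-RNAi T plant 6. Among NT plants it was found for 159 members in NRPE1-RNAi plant 4, 112 in NRP(D/E)2-RNAi plant 3 and 110 in NRPE1-RNAi plant 5. The choice on NT spread raises these NT counts. The fewest were 14 in NRP(D/E)2-RNAi T plant 5 and 23 in NRPD1-RNAi NT plant 1. The share of other compared genes past 1 was not counted. Their median absolute deviation was 0.315 in NRPD1-RNAi T plant 3, 0.279 in NRPE1-RNAi T plant 1 and 0.286 in NRPE1-RNAi NT plant 4. It was 0.128 in NRP(D/E)2-RNAi T plant 5. The plants that displaced many members did so through different groups. NRPD1-RNAi T plant 3 was high in A, E and G and low in B. NRPE1-RNAi T plant 1 was high in B and D and low in A and C. NRPE1-RNAi NT plant 4 was high in A, B and C and low in D, E, F and G. NRP(D/E)2-RNAi NT plant 3 was low in A, C, E and F and high in D. Its low value in F was shared by NT plants 1, 2 and 6.

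Among T plants, which had no part in the choice, NRPE1-RNAi T plant 6 was the farthest of its siblings for 32% of the members and 24.7% of the other compared genes. The reverse held in NRPE1-RNAi T plant 1, whose shares are given above.

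Members were spread over all 20 chromosomes of the identifiers. Their share of the compared genes ran from 0.517% on chromosome 12 (4 of 774) to 1.86% on chromosome 17 (16 of 860). Some neighbouring members varied together. Of 10 pairs of members at most 5 identifiers apart, 7 were in the same group, against 2958 of all 19900 pairs of members. The median r over T libraries was 0.88 for these 10 pairs and 0.08 for all pairs of members. These 10 pairs held 19 members, so they are not all separate. Neighbouring pairs among the other compared genes were not examined. The 4 pairs with adjacent identifiers were each in 1 group: Glyma.08G339300 and Glyma.08G339400 in A, Glyma.08G341600 and Glyma.08G341700 in C, Glyma.11G206900 and Glyma.11G207000 in A, and Glyma.13G267800 and Glyma.13G267900 in B. On chromosome 16, Glyma.16G165200, Glyma.16G165500 and Glyma.16G165800 were all in group B, with r of 0.96 to 0.99 over T libraries and 0.95 to 0.97 over NT libraries.

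Most of the pairs that ran nearly in parallel lay on different chromosomes. An r of at least 0.95 in T and NT libraries alike was found for 21 pairs made of 30 members, and 4 of these pairs lay on 1 chromosome. Of the 21 pairs, 17 were in the same group, and the rest joined members outside the groups. The groups were formed on the same NT correlations, so this was close to fixed in advance. Glyma.08G269900 on chromosome 8 and Glyma.09G133900 on chromosome 9 kept a CPM ratio between 0.961 and 1.29 in all 30 libraries (r = 0.99 over T and 1.00 over NT libraries), while the level of Glyma.08G269900 itself spanned 26.8-fold. Glyma.10G208900 and Glyma.15G003800 kept a ratio between 0.394 and 0.588. Chromosomes 4 and 6 held a double case: Glyma.04G222100 paralleled Glyma.06G143300 (r = 0.98 over T and 0.98 over NT libraries), and Glyma.04G222500, 4 identifiers from Glyma.04G222100, paralleled Glyma.06G142900 (r = 0.97 and 0.99 over T and NT libraries), which is 4 identifiers from Glyma.06G143300. Soybean carries many duplicated genes, and how reads shared by similar copies were counted is not given in the sources used here, so the part of shared reads in these pairs was not tested. The pairs were picked by their values.

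The T and NT siblings of each family were then compared with edgeR's quasi-likelihood test over all genes, which tests whether the mean level differs beyond the spread between plants. The spread by which the members were chosen is part of the error of that test. The p-values weigh the difference of the T and NT means against the spread between these libraries alone. A gene is called at a Benjamini-Hochberg adjusted p under 0.05. The genes tested include many outside the level criteria that the members met. The share called among the compared genes alone was not counted.

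In the NRP(D/E)2-RNAi family, the members that rose in T plants were mostly of groups A and C, and those that fell mostly of groups D, E and G. Of the 200 members, 49 (24.5%) were called, against 15.9% of all genes tested. Members that rose numbered 27, where the background is 8.6%, and members that fell numbered 22, where it is 7.25%. Scaled by total count, the members' calls were 32 higher and 20 lower, and the background 10.7% higher and 4.71% lower. In group A, 15 of 59 rose and 0 fell, with a median log2 fold change of 1.36. In group C, 8 of 25 rose and 0 fell (median 0.80), and in group B, 2 of 29 rose and 0 fell (median -0.32). In group D, 8 of 21 fell and 0 rose (median -1.46), in group E, 5 of 21 fell (median -0.29), and in group F, 2 of 12 fell (median -2.11, and -0.17 without NT plant 4). Group G held 5 of 11 that fell and 1 that rose (median 0.13). The median log2 fold change was 0.35 over the members and -0.01 over all genes tested. Without T plant 2, 27 members (13.5%) were called, against 9.59% of all genes in that fit. Without T plant 3 it was also 27 members, against 9.13%. Without T plant 1 it was 29 members (14.5%), against 11.9%, and without NT plant 4 it was 30 members (15%), against 10% of all genes.

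Among the members that rose in NRP(D/E)2-RNAi T plants, Glyma.17G049800 of group C had 58.5 to 148 CPM (median 94.6) in T plants and 2.31 to 20.2 CPM (median 13.6) in NT plants, with no overlap. The log2 fold change was 2.96 ± 0.46 (SE; edgeR, adjusted p = 0.00146). Glyma.05G034500 had 18.1 to 112 CPM in T plants and 0.780 to 17.8 CPM in NT plants, with a gap smaller than the spread of either group. Its log2 fold change was 2.92 ± 0.71 (edgeR, adjusted p = 0.0185), and in a model of all 30 libraries it was 2.88 with an adjusted p of 0.0646. Among those that fell, Glyma.01G142400 had 2.12 to 39.7 CPM (median 6.25) in T plants and 108 to 495 CPM (median 261) in NT plants, a log2 fold change of -4.56 ± 0.74 (adjusted p = 0.00202 by edgeR). Glyma.02G228100 had 0.871 to 3.53 CPM in T plants and 3.31 to 64.8 CPM in NT plants, which overlapped through NT plant 4 (log2 fold change -3.69 ± 0.58, edgeR, adjusted p = 0.00170).

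**Figure D5:**
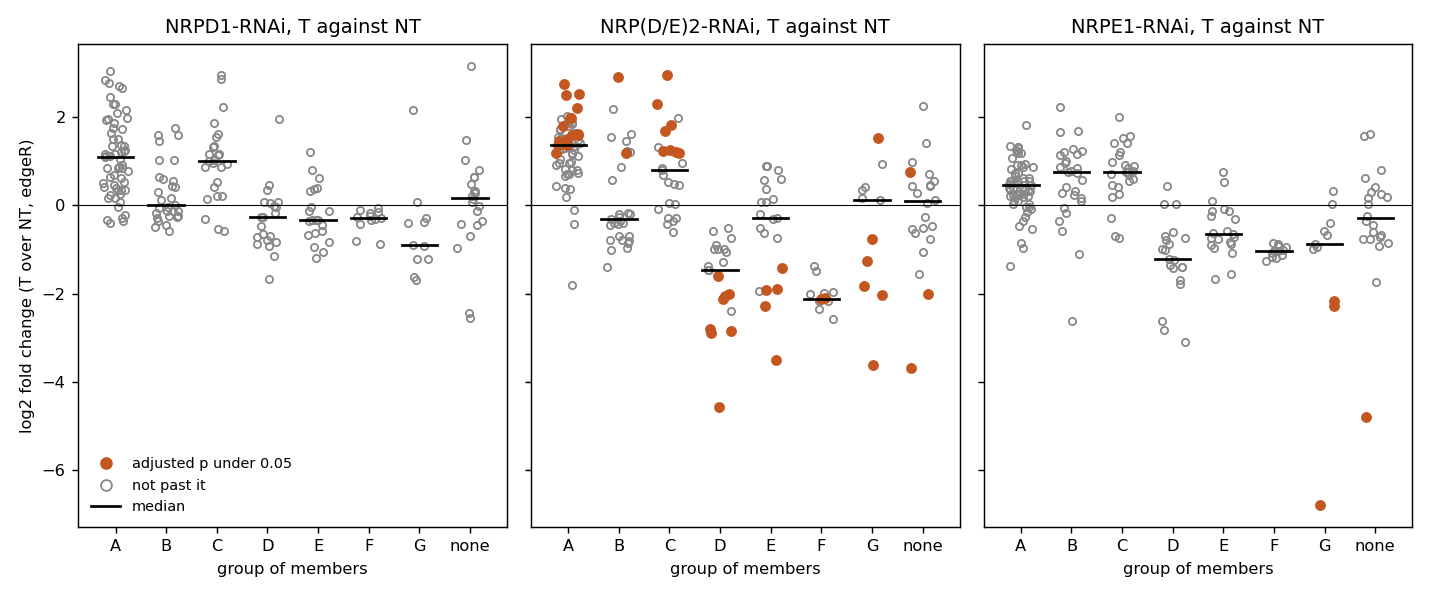
Log2 fold change (T over NT, edgeR) of each member by group, 1 panel a family; filled points passed an adjusted p under 0.05, open points did not, and bars are medians. Of the members, 0, 49 and 4 passed in the 3 families, and the median of group A is 1.09, 1.36 and 0.46 in the order NRPD1-RNAi, NRP(D/E)2-RNAi and NRPE1-RNAi. Without NRPD1-RNAi T plant 3 the first is -0.09.

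In the NRPE1-RNAi family, all but 1 of the members were tested and 4 (2.01%) were called, near the 1.97% of all genes tested. All 4 fell in T plants, where the background is 0.776%, and 0 rose, where it is 1.19%. They were Glyma.14G195000, Glyma.19G228400 and Glyma.03G187000 of group G, and Glyma.02G228100 outside the groups. All 4 were also among the members that fell in the NRP(D/E)2-RNAi family, whose plants are separate and where 7.25% of all genes tested fell. The share of all genes that fell in both families was not counted, so this overlap is not read as particular to the members. Glyma.02G228100 had 1.39 to 12.4 CPM (median 4.19) in NRPE1-RNAi T plants and 32.4 to 406 CPM (median 78.4) in NT plants, with no overlap (log2 fold change -4.79 ± 0.73, edgeR, adjusted p = 0.00354). Glyma.14G195000 averaged 2.75 ± 2.42 CPM in T plants and 304 ± 148 CPM in NT plants (SD, n = 6 each), a log2 fold change of -6.78 ± 0.75 (adjusted p = 0.000302 by edgeR).

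The count in this family depended on 1 library. Without NRPE1-RNAi NT plant 4, 32 members (16.1%) were called, 16 that rose and 16 that fell, against 6.62% of all genes tested. Those that rose were 7 of group A, 4 of B and 5 of C, and those that fell were 3 of group E, 6 of F, 6 of G and 1 outside the groups.

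In the NRPD1-RNAi family, with 3 plants a group, 0 of the 200 members were called by edgeR, where 0.0164% of all genes tested were. An unadjusted p under 0.05 was found for 23 members (11.5%), against 7.82% of all genes tested. DESeq2 called 5 members (2.5%), all higher in T plants, against 1.81% of all genes. Without T plant 3, edgeR called 1 member (0.5%), higher in T plants, against 0.174% of all genes. With no member past the test, the median log2 fold change was 1.09 in group A, 1.00 in C and -0.89 in G. Without T plant 3 these medians were -0.09 in A, 1.05 in C and -2.40 in G, so the value in group A was carried by that 1 plant. The median in G was -0.01 without NT plant 2 and -0.48 without NT plant 1, so it too depended on single plants.

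The difference between the NRPE1-RNAi and NRP(D/E)2-RNAi effects, tested as an interaction in 1 model of all 30 libraries, called 0 of the 200 members by edgeR, where it called 0.169% of all genes tested (0.0995% higher and 0.0691% lower). An unadjusted p under 0.05 was found for 18 members (9%), against 9.74% of all genes, and DESeq2 called 2 members (1%), against 0.835% of all genes. A group with calls in 1 family and not in the other is thus not shown to differ between them.

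The NT siblings of the Mustang families differed from each other in the members about as often as in other genes. Between NRPE1-RNAi NT and NRP(D/E)2-RNAi NT plants, 78 members (39%) were called, against 39.9% of all genes tested. Higher in NRPE1-RNAi NT plants were 49 members, where the background is 20.4%, and lower were 29, where it is 19.5%. Scaling by total count moved the median log2 fold change of all genes from 0.02 by TMM scaling (trimmed mean of M values) to -0.15, the background to 14.8% higher and 26.9% lower, and the members' calls to 37 higher and 32 lower. By group the calls went mostly 1 way: 18 higher and 2 lower in NRPE1-RNAi NT plants in group A, 8 higher and 0 lower in D, 9 higher and 0 lower in E and 8 higher and 0 lower in G. In group B, 1 was higher and 12 were lower, and in group C, 1 was higher and 15 were lower. Group F had 0 calls of 12. Glyma.03G187000 averaged 135 ± 50.9 CPM in NRPE1-RNAi NT plants and 8.57 ± 4.91 CPM in NRP(D/E)2-RNAi NT plants (SD, n = 6 each), with no overlap (log2 fold change 4.18 ± 0.44, edgeR, adjusted p = 2.5e-08). Glyma.08G220000 averaged 5.58 ± 7.01 CPM in NRPE1-RNAi NT plants and 149 ± 52.9 CPM in NRP(D/E)2-RNAi NT plants, also with no overlap (log2 fold change -4.60 ± 0.78, edgeR, adjusted p = 3.3e-05). Glyma.15G105900, called higher, overlapped: 1.39 CPM in NRPE1-RNAi NT plant 4 and 58.1 to 421 CPM in its siblings, against 3.13 to 22.5 CPM. Glyma.06G102100, called lower, had 3.45 to 12.4 CPM in NRPE1-RNAi NT plants and 26.1 to 439 CPM in NRP(D/E)2-RNAi NT plants. A growth or sequencing batch that followed a family cannot be told apart from the family.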

How the data were processed

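The authors deposited 1 table per library with a raw read count for each gene and no header; the values are whole numbers, not normalised. The submitters' processing notes name FastQC 0.11.5, STAR 2.5.3a and edgeR; genome build, annotation, strandedness and counting program are not given in the sources used here. Poly(A) selection and NEBNext libraries on an Illumina HiSeq instrument are per the labels' protocols. The members and lists were chosen with earlier results of these data known. CPM used the plain library total and log2 values a pseudocount of 1. Genes named are the 10 members with the highest NT SD, 3 per group nearest to its profile, the 5 with the highest T SD, 2 genes on each side of the limit, and up to 2 called each way per comparison; not all are printed, and the parallel pairs and others are marked where they were picked by value. Grouping used average linkage on 1 minus Pearson r. Tests used edgeR 4.0.16 (filterByExpr, TMM scaling, quasi-likelihood, Benjamini-Hochberg over all tested genes) within each family, and 1 model of the 6 groups for differences between families, in R 4.3.3; the SE of a fold change was its size divided by the root of the F statistic. The alternatives were DESeq2 1.42.0, total-count scaling, no filter, other pseudocounts and level criteria, a replicate block and leaving out each library. Grouping and tests were tested on simulated data. Of planted 4-fold changes, edgeR recovered 56% in the NRPD1-RNAi design, 95% in the NRP(D/E)2-RNAi design and 89% in the NRPE1-RNAi design. Of planted 2-fold changes it recovered 0%, 62% and 46% in the same order. An absence of calls in the NRPD1-RNAi family is thus not an absence of change. Library pairs with identical values numbered 0. Of the 55589 identifiers, 0 matched the RefSeq table of 59048 genes, so functional lists, tissue markers, promoters and the transcripts of the targeted subunits were not analysed here. Other steps ran in Python 3.11.15 with scipy 1.17.1 and matplotlib 3.10.9.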

Additional observations from a re-analysis of the deposited data

Results flagged for a closer look

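In 6 of 68 checks of groups of 6 plants, 1 plant lay so far from its siblings that its gap to the nearest of them exceeded 0.625 of the whole range (Dixon's criterion). Chance flags about 1 in 20 groups. All values are on the log2(CPM + 1) scale. Group E had a mean of 3.84 in NRPE1-RNAi NT plant 4, below 6.94 to 7.20 in the other NT plants, and Glyma.13G091100 stood at 9.28 in the same plant, above 2.64 to 4.88. Group F had a mean of 8.08 in NRP(D/E)2-RNAi NT plant 4, above 4.07 to 5.47, and Glyma.14G195000 stood at 3.56 in that plant, below 5.87 to 6.85. Glyma.02G156800 stood at 9.26 in NRPE1-RNAi NT plant 6, above 1.54 to 3.39. Glyma.13G160400 stood at 6.13 in NRPE1-RNAi T plant 1, above 0.19 to 2.21 in the other T plants. For the NT values the members had been chosen for their spread there, so that chance rate does not apply to them.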

How the results depend on the processing

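DESeq2 called 83 members in the NRP(D/E)2-RNAi family (41.5%, against 23.2% of all genes) where edgeR called 49, 10 where edgeR called 4 in the NRPE1-RNAi family (5.03%, against 5.14%), 5 where edgeR called 0 in the NRPD1-RNAi family (2.5%, against 1.81%) and 2 where edgeR called 0 for the interaction (1%, against 0.835%). With each library left out in turn, the called members ranged from 27 to 56 in the NRP(D/E)2-RNAi family, 4 to 32 in the NRPE1-RNAi family, 0 to 1 in the NRPD1-RNAi family, 66 to 84 between the NT families and 0 to 0 for the interaction. The median T SD of the members ranged from 0.65 (without NRPD1-RNAi T plant 3) to 0.98, and 80 to 96 of them stayed among the 200 highest by T SD. Of the 200 members, 147 to 192 were chosen again, fewest without NRPD1-RNAi NT plant 3 and 154 without NRPE1-RNAi NT plant 4, and 185, 164 and 173 with a pseudocount of 0.1 or 5 or TMM scaling. With libraries left out, the number of groups ranged from 5 to 7 and the members placed from 167 to 183. Of the pairs that shared a group, 72.7% still did without NRPE1-RNAi NT plant 4 and 77.3% without NRP(D/E)2-RNAi NT plant 4. The share was 79.1% without NRP(D/E)2-RNAi NT plant 3 and highest, at 95.2%, without NRPD1-RNAi NT plant 2. With a level criterion of 1 CPM, which admits more genes, 53 members were among the 200 highest by T SD, against 91. Equal replicate numbers did not pair the plants (correlations between same-numbered T and NT plants of -0.45 to 0.43), and a replicate block gave 29 called members in the NRP(D/E)2-RNAi family (14.5%, against 6.92% of all genes), 25 of them shared with the 49. Without NRPD1-RNAi T plant 3, chosen after seeing the data, the median r of group G over T libraries was -0.01 against 0.62. Of 413 alternatives for single genes, group medians and group correlations, 366 were counted as the same, 46 as moved and 1 as weaker. A group median counted as the same if its shift was less than the larger SD between plants, whatever its sign. Group A in the NRPD1-RNAi family, at 1.09 and at -0.09 without T plant 3, thus counted as the same. So did group B in the NRPE1-RNAi family, at 0.75 and at -0.20 without T plant 1. The values without the libraries that stood apart were likewise chosen after seeing the data. The causes were not tested. With 3 plants a group in the NRPD1-RNAi family, precision was lowest there.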
